A study of Homo sapiens with 6 samples.

Results

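The temperature-sensitive transient receptor potential (TRP) channels were examined in AC16 cells, a human line labelled as adult ventricular cardiomyocytes. In the hypothermia group the cells were kept at 28 °C for 6 h. In the control group they were kept at 37 °C for the same time. Total RNA was hybridised to 6 arrays, 3 per group, and both groups shared the line, the medium and 5% CO2. The members were 10 genes, TRPA1, TRPM4, TRPM7, TRPM8, TRPV1, TRPV2, TRPV3, TRPV4, TRPC1 and TRPC5, of 22411 genes with a feature of a single symbol. Each of the 10 had 1 such feature on the array. Signals are log2 values made with RMA (robust multi-array average), so a difference of 1 is a doubling. The cells are from 1 line. Nothing in the labels or methods shows that the 3 replicates of a group were grown separately, so the p-values describe the scatter among these arrays, and that scatter may be technical. In total RNA of a culture, fewer cells that express a gene and less RNA per cell cannot be told apart.

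TRP channels are cation channels of the plasma membrane and of internal vesicles, opened by lipids, plant compounds, stretch, calcium or a change in temperature. The warm and hot sensors of the TRPV branch and the cold and menthol receptor TRPM8 are best known from sensory neurons and skin, where they turn temperature into a cation current. In the heart, TRPM4, TRPM7 and the TRPC channels are known for their part in conduction, magnesium balance and calcium entry. Temperature acts on the channel protein itself, whereas the arrays measured transcripts.

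None of the 10 channel genes passed the threshold between hypothermia and control cells. The threshold was an adjusted p under 0.05 in limma, with Benjamini-Hochberg adjustment over all 70523 features. That threshold was passed upwards by 0.227% and downwards by 0.591% of the features on the array. The smallest adjusted p of a member in limma was 0.336, for TRPM7. By unadjusted p under 0.05, limma and a random variance model each gave 1 lower member, TRPM7, and none higher. At that unadjusted level limma gave 5.41% of all features higher and 6.08% lower, and the random variance model, the test that the study's methods name for the arrays, gave 5.41% higher and 6.06% lower. The methods' t-test, which is unpaired and named there for data in general, gave 1 higher member, TRPV3, and none lower, beside 4.93% of all features higher and 5.26% lower. A count of 1 in 10 is near these shares. The 3 hypothermia arrays did not overlap the 3 control arrays for 1 member above them, TRPV3, and for 2 members below them, TRPM7 and TRPC1. Over all features the corresponding shares were 9.38% above and 8.49% below. The mean was higher at 28 °C for 8 members, 1 of which (TRPV2) turned when the arrays were quantile normalised or centred on their medians, and lower for 2. The median log2 difference of the 10 members was 0.055, beside 0.026 over all features, of which 59.6% had a difference above 0.

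**Figure D1:**
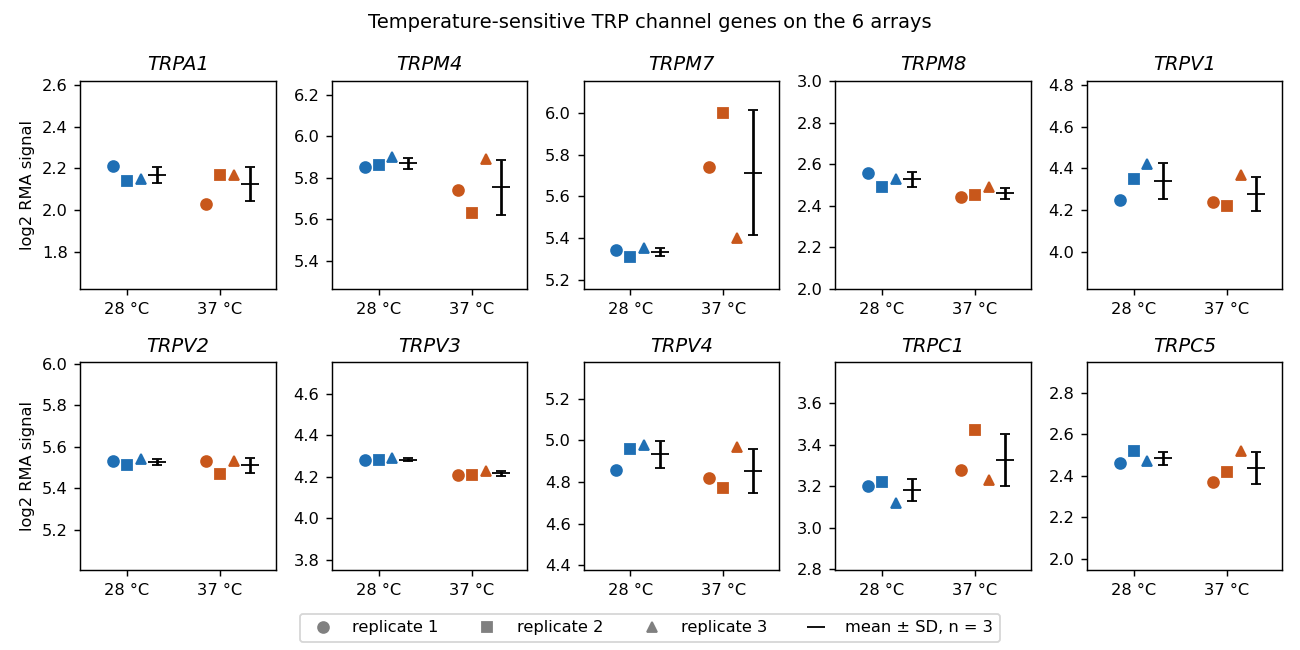
Log2 RMA signal of each of the 10 channel genes on each array, with hypothermia (28 °C) to the left of control (37 °C) in every panel. Points are arrays, and black bars beside them are the mean ± SD (n = 3 each). The TRPM7 points at 28 °C lie between 5.31 and 5.35, below all 3 control points, which lie between 5.40 and 6.00.

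TRPM7, a channel with a kinase domain at its end that carries magnesium, calcium and zinc and is present in most cell types, had the widest difference. Its signal was 5.34, 5.31 and 5.35 in hypothermia cells, against 5.74, 6.00 and 5.40 in control cells. The hypothermia arrays lay close together and below every control array, but control replicate 3 was only just above them. The means were 5.33 ± 0.0253 at 28 °C and 5.71 ± 0.300 at 37 °C (SD, n = 3 each). The log2 difference was -0.38 (SE 0.136, 95% interval -0.70 to -0.06), a fold of 0.768 (0.617 to 0.956), with an adjusted p of 0.336 in limma. A two-sided exact permutation test gave p = 0.1, the smallest value that 3 arrays against 3 allow. Any gene whose groups do not overlap reaches that value, and TRPV3 and TRPC1 did so too.

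The TRPM7 value depended on single control arrays. Without control replicate 3 the difference was -0.54 (SE 0.0888) and the adjusted p in limma was 0.0492, the only member call under any setting tried. Without control replicate 2 the difference was -0.24 with an adjusted p of 0.584 in limma. With each of the other arrays left out it was between -0.39 and -0.37, with adjusted p of 0.551 to 0.598 in limma. With weights for the quality of each array the difference was -0.41 with an adjusted p of 0.0853 in limma. The lowest weights were 0.466 for control replicate 3 and 0.53 for control replicate 2. Control replicate 3 also lay above the other control arrays in the brighter background rows, as given further on.

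TRPM4, a channel that calcium opens and that carries sodium and potassium, is known from the conduction system of the heart. Its signal was 5.85, 5.86 and 5.90 in hypothermia cells, against 5.74, 5.63 and 5.89 in control cells. The groups overlapped, since control replicate 3 lay above 2 of the hypothermia arrays. The log2 difference was 0.11 (SE 0.0796, 95% interval -0.07 to 0.30) with an adjusted p of 0.623 in limma. Without control replicate 3 it was 0.18 with an adjusted p of 0.216 in limma.

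TRPM8, the receptor of menthol and cool temperatures, had 2.56, 2.49 and 2.53 in hypothermia cells, against 2.44, 2.45 and 2.49 in control cells. The lowest hypothermia array met the highest control array at this rounding, and the groups overlapped. Its log2 difference came to 0.06 (SE 0.0601, 95% interval -0.07 to 0.20) with an adjusted p of 0.717 in limma. TRPA1, the receptor of mustard oil and other irritants, which is also opened by cold in some studies of rodents, had 2.21, 2.14 and 2.15 at 28 °C, against 2.03, 2.17 and 2.17 at 37 °C. Its control arrays spread more widely than its hypothermia arrays and reached above 2 of them. The log2 difference was 0.04 (SE 0.0677, 95% interval -0.11 to 0.20) with an adjusted p of 0.834 in limma. TRPC5, a calcium-permeable channel that responds to cold in the mouse, had 2.46, 2.52 and 2.47 in hypothermia cells, against 2.37, 2.42 and 2.52 in control cells. Control replicate 3 again met the hypothermia arrays, level with the highest of them at this rounding. For TRPC5 the log2 difference was 0.05 (SE 0.0662, 95% interval -0.11 to 0.20) with an adjusted p of 0.823 in limma.

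TRPC1, a subunit that joins TRPC4 and TRPC5 in mixed channels and has been studied in calcium entry after store release, was the other member with a lower mean. It had 3.20, 3.22 and 3.12 at 28 °C, against 3.28, 3.47 and 3.23 at 37 °C. The groups did not overlap, although hypothermia replicate 2 and control replicate 3 were next to each other. The log2 difference was -0.14 (SE 0.0808, 95% interval -0.33 to 0.04) with an adjusted p of 0.548 in limma.

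The 4 TRPV genes encode the heat and warm sensors. TRPV1, the capsaicin receptor opened by noxious heat and acid, had 4.25, 4.35 and 4.42 in hypothermia cells, against 4.24, 4.22 and 4.37 in control cells. The groups overlapped, and the log2 difference was 0.07 (SE 0.0758, 95% interval -0.11 to 0.24; adjusted p = 0.769 in limma). TRPV4, opened by warmth and by swelling of the cell, had 4.86, 4.96 and 4.98 in hypothermia cells, against 4.82, 4.77 and 4.97 in control cells. Its log2 difference was 0.08 (SE 0.0764, 95% interval -0.09 to 0.26; adjusted p = 0.707 in limma). In both genes control replicate 3 was the highest control array and lay among the hypothermia arrays.

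TRPV3, a warm sensor best known from skin keratinocytes, had 4.28, 4.28 and 4.29 at 28 °C, against 4.21, 4.21 and 4.23 at 37 °C. The arrays of each group lay very close together and did not overlap (SD 0.00587 at 28 °C and 0.0143 at 37 °C). The log2 difference was 0.07 (SE 0.0576, 95% interval -0.07 to 0.20) with an adjusted p of 0.695 in limma, which moderates each gene's spread towards that of the other features. The methods' t-test, which uses the spread of the single gene alone, gave an unadjusted p of 0.00177 and an adjusted p of 0.202. TRPV2, which is opened by strong heat in rodent neurons and by stretch in muscle, had 5.53, 5.51 and 5.54 at 28 °C, against 5.53, 5.47 and 5.53 at 37 °C. These arrays were almost level, with a log2 difference of 0.02 (SE 0.0594, 95% interval -0.12 to 0.15; adjusted p = 0.939 in limma).

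**Figure D2:**
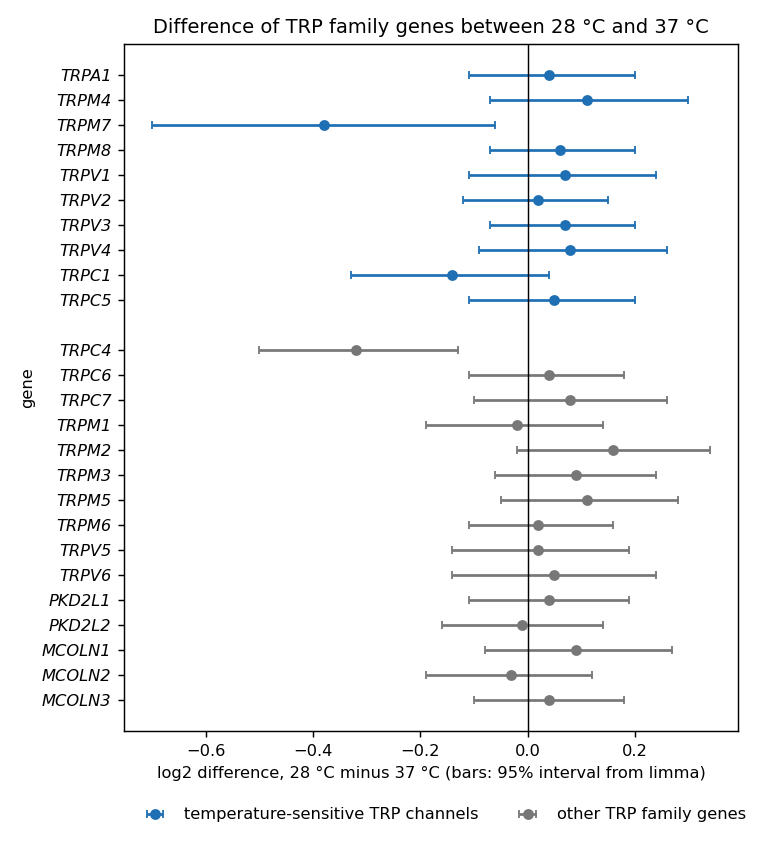
Log2 difference, 28 °C minus 37 °C, with its 95% interval from limma (n = 3 each), for the 10 channel genes (top) and the 15 other TRP family genes (below). The TRPM7 interval runs from -0.70 to -0.06, and the intervals of the other 9 channel genes include 0 and lie between -0.33 and 0.30.

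Apart from TRPM7, the 9 intervals lay between -0.33 and 0.30 on the log2 scale. A p above the threshold does not show that a transcript was at the same level at 28 °C and 37 °C.

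The dim genes were set against 23 background rows of the array, which hold probes grouped by their number of G and C bases and named for it. The rows' mean log2 signals ran from 1.76 (GC03) to 10.93 (GC25), so probes rich in G and C were bright with no target gene and no single level separates signal from background. The median row was 2.59, 2.57 and 2.60 on the hypothermia arrays, against 2.47, 2.50 and 2.60 on the control arrays. TRPA1, TRPM8 and TRPC5 lay below that row on all 6 arrays, and the other 7 members lay above it on all 6. Of all 22411 genes, 3047 lay below the median row on all 6 arrays and 18198 lay above it. No member lay above the 75th percentile of the rows on all 6 arrays, where the percentile was 5.94, 5.95 and 5.99 at 28 °C and 5.71, 5.59 and 5.97 at 37 °C. Of all 22411 genes, 6626 lay above that percentile on all 6 arrays. TRPM4 and TRPM7 each passed it on 2 arrays, control replicates 1 and 2. The probes of a member may differ from those of a row in G and C, so these comparisons place a signal within the range of background and do not show whether a transcript was present.

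The background rows differed between the groups as well. All 11 rows brighter than the median row had a higher mean at 28 °C, with a median log2 difference of 0.184 and a smallest adjusted p of 0.454 in limma. The mean of those 11 rows was 6.4, 6.39 and 6.49 on the hypothermia arrays, against 6.2, 6.1 and 6.47 on the control arrays. Control replicate 3 was thus level with the hypothermia arrays and above the other control arrays. The 11 dimmer rows had a median log2 difference of 0.006.

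For each member the row nearest to it in mean signal was taken. TRPM4, TRPM7 and TRPV2 shared row GC19, which had 5.71, 5.71 and 5.74 at 28 °C, against 5.50, 5.37 and 5.74 at 37 °C, a log2 difference of 0.18. TRPV1 and TRPV3 shared row GC17 and TRPV4 was nearest to row GC18, both with a difference of 0.17. Each of the positive differences of TRPM4 and the 4 TRPV genes was smaller than that of its row. Relative to the nearest row, 9 of the 10 members had a lower value at 28 °C, and TRPM8 had a difference of 0.00. The same subtraction gave a lower value for 13 of the 15 other TRP family genes and for 73.7% of all features, so the count was not particular to the members. The median relative difference was -0.098 over the members and -0.070 over all features. The relative difference was -0.56 for TRPM7, -0.21 for TRPC1, -0.17 for TRPV2 and -0.11 for TRPV1 and TRPV3.

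**Figure D3:**
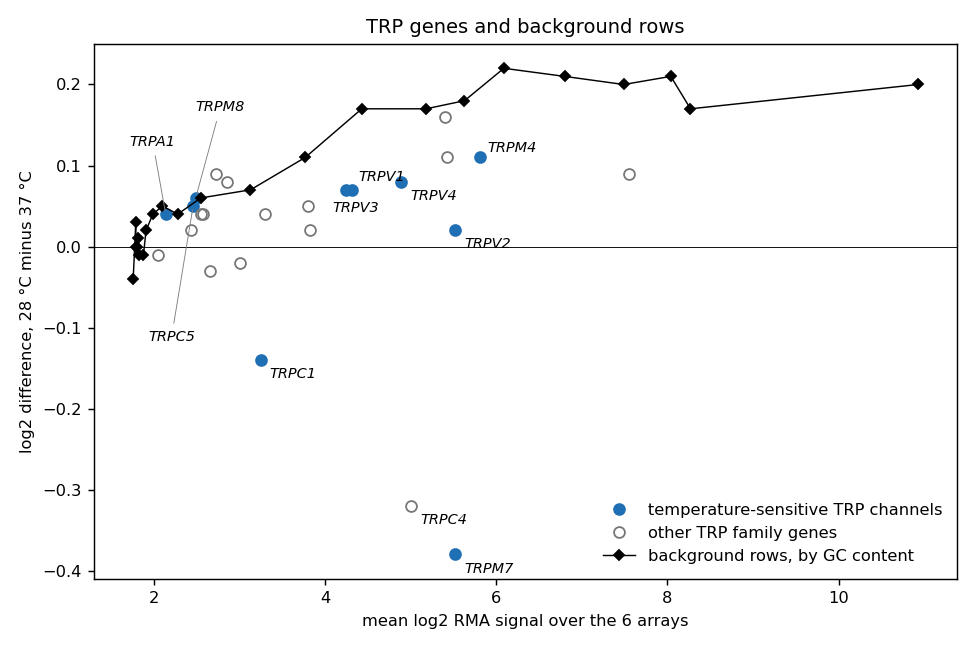
Log2 difference, 28 °C minus 37 °C, against mean log2 RMA signal over the 6 arrays, for the 10 channel genes (filled circles), the 15 other TRP family genes (open circles) and the 23 background rows (diamonds, joined in order of G and C content). TRPA1, TRPM8 and TRPC5 sit on the dim end of the background line, and TRPM7 at -0.38 lies below the nearest row at 0.18.

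On single arrays the members were set beside the brighter background rows. The mean of the 11 brighter rows deviated from its mean over the 6 arrays by 0.06, 0.05 and 0.15 at 28 °C and by -0.14, -0.24 and 0.12 at 37 °C. TRPM4 deviated by 0.03, 0.05 and 0.09 at 28 °C and by -0.07, -0.18 and 0.08 at 37 °C, with the same sign as the background on every array. TRPM7 deviated by -0.18, -0.22 and -0.17 at 28 °C and by 0.22, 0.47 and -0.12 at 37 °C, with the opposite sign on every array. TRPC5 also shared the sign of the background on all 6 arrays and TRPC1 had the opposite sign on all 6, while the signs of the other 6 members were mixed. TRPM8, TRPV1, TRPV3 and TRPV4 shared the sign on 5 arrays, and TRPA1 and TRPV2 on 4. With the mean of those rows as a covariate in limma, chosen after seeing the data, the TRPM7 difference was -0.13 with an adjusted p of 0.73, 3 members had a difference above 0 and 7 below, beside 48.6% of all features below 0, and none passed the threshold. The part of the background in the members' differences was not tested.

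**Figure D4:**
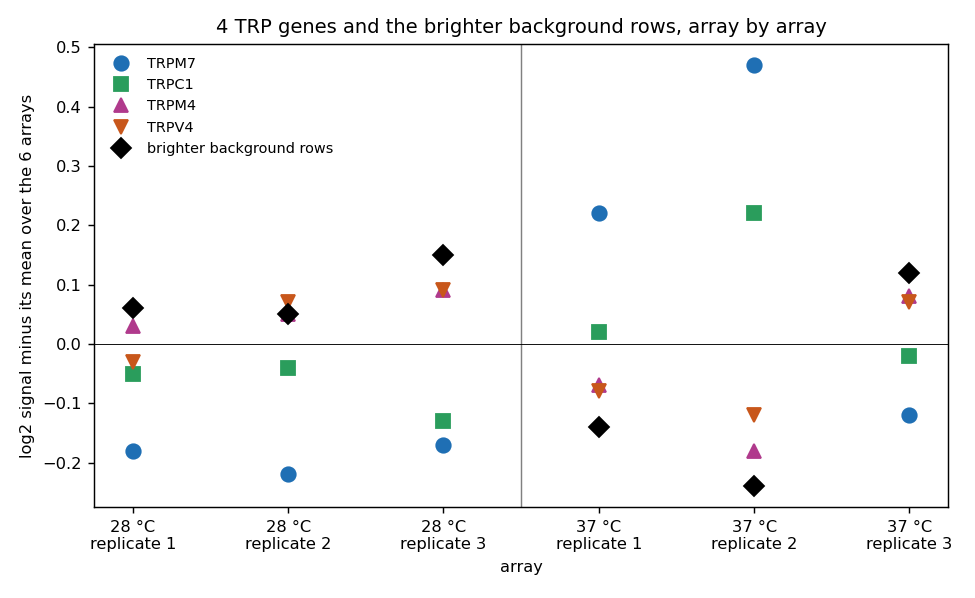
Deviation of each array from the mean over the 6 arrays, in log2 units, for the mean of the 11 brighter background rows and for channel genes, with the hypothermia arrays left of the control arrays. Control replicate 3 is at 0.12 for the background rows and at -0.12 for TRPM7, on the side of the hypothermia arrays in both.

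The promoters of the members were read from a RefSeq sequence table of the build GRCh38.p14. A filter removed the chromosome that carries TRPA1, which left out any TRPA1 window. The sequence table held no window for TRPV2, TRPV4 and TRPC5, so windows were read for 6 of the 10 genes. The filter was not applied to the windows of all genes used for comparison. TRPM7, the member with the widest difference, and TRPM8, one of the 3 below the median background row, are shown as examples of a promoter rich in CG pairs, the sites of DNA methylation, and of one poor in them. Each run gives the 250 bases before the start of the transcript, 5′ to 3′ on the strand of the gene, with every CG in capitals. The TRPM7 window is chr15:50686798-50687047 on the minus strand, and the TRPM8 window is chr2:233917123-233917372 on the plus strand, the first of its 6 windows.
TRPM7: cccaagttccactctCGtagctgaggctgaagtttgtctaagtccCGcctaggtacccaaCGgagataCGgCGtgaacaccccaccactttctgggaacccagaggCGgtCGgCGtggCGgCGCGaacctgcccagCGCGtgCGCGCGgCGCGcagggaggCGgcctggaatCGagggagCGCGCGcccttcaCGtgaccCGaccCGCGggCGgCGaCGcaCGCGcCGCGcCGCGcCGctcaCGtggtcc
TRPM8: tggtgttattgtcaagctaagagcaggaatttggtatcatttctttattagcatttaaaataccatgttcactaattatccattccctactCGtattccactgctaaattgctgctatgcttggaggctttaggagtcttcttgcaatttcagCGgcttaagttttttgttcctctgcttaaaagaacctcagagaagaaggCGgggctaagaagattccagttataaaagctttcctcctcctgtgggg

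The TRPM7 window held 38 CG pairs, a number that 3.28% of 35116 promoter windows of this length reached or passed, and 70.8% of its bases were G or C. The printed TRPM8 window held 3 CG pairs, which 77.1% of windows reached or passed, and 40% of its bases were G or C. The other 5 TRPM8 windows held 1 to 4 CG pairs, and 1 of the 2 TRPC1 windows held 0. The median window held 11 CG pairs, and 93.9% of windows held at least 1. The letters TATAAA, searched on both strands, were present in the printed TRPM8 window, absent from its other 5 windows and from the TRPM7 window, and in 10.7% of all windows. These are descriptions of the reference sequence, and methylation was not measured.

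The other TRP family genes, listed by family and not for a lack of response to temperature, were described beside the members. Of 17 listed, 15 had a feature with a single symbol, and none passed the threshold in either direction (median log2 difference 0.041). In limma, 1 had an unadjusted p under 0.05, the lower TRPC4, which forms channels with TRPC1 and TRPC5. At that unadjusted level 5.41% of all features were higher and 6.08% lower. TRPC4 had 4.89, 4.82 and 4.87 in hypothermia cells, against 5.11, 5.32 and 5.09 in control cells, a log2 difference of -0.32 (SE 0.0787, adjusted p = 0.158 in limma). Here control replicate 3 lay with the other control arrays, and the groups did not overlap. TRPM2, a channel opened by ADP-ribose under oxidative stress, had 5.48 on all 3 hypothermia arrays, against 5.27, 5.23 and 5.47 on the control arrays (log2 difference 0.16, adjusted p = 0.497 in limma). Row GC18, the background row nearest to TRPM2 in mean signal, had a difference of 0.17. MCOLN1, the lysosomal calcium release channel, was the only gene of the 15 above the 75th percentile of the background rows on all 6 arrays, with means of 7.60 at 28 °C and 7.51 at 37 °C.

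Of 15 listed channels outside the TRP family that respond to temperature or sit in the endings of sensory neurons, 13 were measured and none passed the threshold (median log2 difference 0.056). In limma, 2 had an unadjusted p under 0.05, both lower, beside 5.41% of all features higher and 6.08% lower. SCN9A, a voltage-gated sodium channel of sensory neurons, had 3.85, 3.91 and 3.73 in hypothermia cells, against 4.23, 4.44 and 4.07 in control cells, a log2 difference of -0.42 (SE 0.103, adjusted p = 0.153 in limma). PIEZO2, a channel opened by touch and stretch, had 6.25, 6.21 and 6.22 at 28 °C, against 6.60, 6.65 and 6.28 at 37 °C. Its control replicate 3 lay near the hypothermia arrays, as it did for TRPM7. The log2 difference of PIEZO2 was -0.28 (SE 0.102, adjusted p = 0.337 in limma), and without that array it was -0.40 with an adjusted p of 0.0416 in limma.

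Genes of calcium entry and of TRP regulation likewise gave no call. Of 6 listed genes of store-operated calcium entry, in which STIM proteins sense an emptied store and open ORAI channels, 5 were measured (median log2 difference 0.124). ORAI1, the pore of that pathway, had 7.14, 7.21 and 7.38 in hypothermia cells, against 7.08, 7.00 and 7.06 in control cells (log2 difference 0.20, adjusted p = 0.381 in limma), and was the only one of the 5 with an unadjusted p under 0.05. Row GC21, the background row nearest to ORAI1 in mean signal, had a difference of 0.21. With each array centred on its median, the ORAI1 difference was 0.16 with an unadjusted p of 0.0638 in limma. Of 33 listed activators and regulators of TRP channels, 26 were measured (median log2 difference 0.016), and CAV1 and PLCB4 had an unadjusted p under 0.05, both lower. CAV1, which encodes the main coat protein of caveolae, had 8.14, 8.21 and 8.19 at 28 °C, against 8.36, 8.40 and 8.30 at 37 °C (log2 difference -0.18, adjusted p = 0.341 in limma). PLCB4, a phospholipase that splits the lipid PIP2 on which many TRP channels depend, had 4.53, 4.49 and 4.56 at 28 °C, against 4.80, 4.75 and 4.61 at 37 °C (log2 difference -0.20, adjusted p = 0.342 in limma). In each of these 3 genes the groups did not overlap. Over all features, limma gave 5.41% higher and 6.08% lower at that unadjusted level. Without overlap, 9.38% of all features lay above and 8.49% below.

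Calcium that enters the cell can act through the phosphatase calcineurin on NFAT and, through calcium-dependent kinases, on MEF2 transcription factors. All 18 listed genes of that axis were measured and none passed the threshold (median log2 difference 0.000). MEF2D, a MEF2 factor of muscle and other cells, had 7.30, 7.14 and 7.15 in hypothermia cells, against 6.93, 6.61 and 6.80 in control cells. The groups did not overlap, with a log2 difference of 0.42 (SE 0.0936) and an adjusted p of 0.12 in limma, the smallest of the 5 related lists. PPP3CA, a catalytic subunit of calcineurin, had a log2 difference of -0.21 with an adjusted p of 0.44 in limma.

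**Figure D5:**
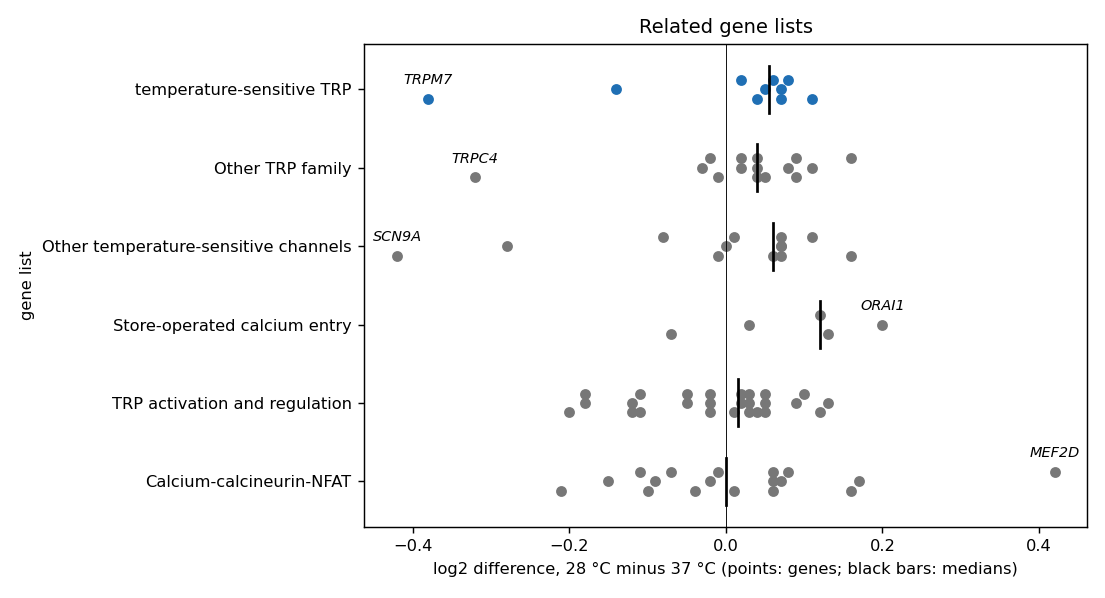
Log2 difference, 28 °C minus 37 °C, of every measured gene in the channel list and the 5 related lists. Each point is a gene, and none passed an adjusted p under 0.05 in limma. The medians of the 6 lists lie between 0.000 and 0.124.

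The labelled cell type was checked against its markers. Of 11 measured cardiomyocyte markers, 2 lay above the 75th percentile of the background rows on all 6 arrays, NPPB (9.12 at 28 °C and 9.15 at 37 °C) and GATA4 (6.88 at 28 °C and 6.73 at 37 °C), while the sarcomere gene TTN and the calcium release channel RYR2 lay below the median row on all 6. Of 9 measured fibroblast markers 7 lay above that percentile, and of 9 measured sensory neuron markers 1 did, UCHL1. Of 5 measured smooth muscle markers 2 did, CNN1 and TAGLN, of 5 measured leukocyte markers 1 did, CD68, and of 5 measured endothelial markers 0 did. For comparison, 6626 of all 22411 genes lay above that percentile on all 6 arrays. None of these marker genes passed the threshold between the groups in limma.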

How the data were processed

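Total RNA of AC16 cells was measured on 6 arrays, 3 at 28 °C and 3 at 37 °C for 6 h. The deposited values were log2 signals from RMA, a method of background correction, normalization between arrays and probe summary. The RMA version is not given in the sources used here. Of 70523 features, 23781 had 1 gene symbol in the platform annotation, 1543 had several and 45199 had none. Symbols were updated with RefSeq (GRCh38.p14), and the brightest feature of a gene was used. A model with group alone was fitted to all features in R 4.3.3 by lmFit and eBayes of limma 3.58.1, with Benjamini-Hochberg adjustment across them. The precision is limited by the number of arrays. The members and lists were chosen with earlier results of these data known. All 10 members were named, and of each related list the genes past the threshold, or otherwise up to 4 with the smallest unadjusted p, from which the text gives those under 0.05 and selected others. MCOLN1 was named after its values were seen. Alternatives covered normalization, filters, variance models, the methods' t-test, array weights, a replicate block, single arrays left out and the background rows.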

Additional observations from a re-analysis of the deposited data

How the results depend on the processing

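With 3 arrays per group, no exact permutation test of a gene can go below p = 0.1, and RMA values carry no depth. Each member had 1 feature, so another choice of feature could not be run. No member passed under any full-array alternative. Without control replicate 3, 1 member (TRPM7, log2 difference -0.54) and 1 listed channel outside the TRP family (PIEZO2) passed as lower. The cause was not tested. The labels do not say what a replicate number shares. Same-numbered arrays correlated at -0.0817, 0.114 and 0.215 after the group means were removed, and differently numbered ones at -0.25 to 0.131. With a replicate block, 122 features were higher and 304 lower, against 160 and 417 without it, no member was called, and TRPM7 had an adjusted p of 0.3 in limma. Over all features the counts of higher and lower were 249 and 628 with the dimmer 50% of features left out, 0 and 0 by the methods' t-test, 379 and 1107 with array weights, 308 and 775 at an adjusted p under 0.1, and 66 and 105 with the brighter background rows as a covariate, chosen after seeing the data. With single arrays left out they ran from 60 to 214 and from 112 to 799, the highest of each without control replicate 3. None of the 10 members lay above the 75th percentile of the background rows on all arrays, and 0 lay above the highest row, beside 7 above the median row. Small positive differences turned negative under some settings. With single arrays left out, TRPA1 ran from -0.001 (without control replicate 1) to 0.068, and TRPV2 from -0.004 (without control replicate 2) to 0.027. TRPV2 was -0.001 with quantile normalization and -0.020 with median centring. With the background covariate TRPM4 was -0.002, TRPV1 -0.018, TRPV2 -0.007, TRPV4 -0.011 and TRPC5 -0.001. With the signal of the nearest background row subtracted, also chosen after seeing the data, TRPA1 was -0.008, TRPM4 -0.069, TRPV1 -0.11, TRPV2 -0.17, TRPV3 -0.11, TRPV4 -0.089 and TRPC5 -0.017.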
